A study of Rattus norvegicus with 6 samples.

Results

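The genes of fatty acid synthesis and desaturation were followed in cultured rat oligodendrocyte progenitors (OPCs), proliferating glia from which the myelin-forming oligodendrocytes develop. The 10 genes, taken by name with earlier results of these data known, were Acss2, Acly, Acaca, Fasn, Me1, Scd, Elovl6, Fads1, Fads2 and Pnpla3. Of these, 9 were measured among 13355 genes in all. Each of the 9 had 1 probe set with a single gene symbol and a value on every array. Fasn, the fatty acid synthase gene, was not analysed here.

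There were 3 arrays of cells given fibrinogen, the clotting protein of blood plasma, for 48 h in differentiation medium, and 3 arrays of control cells that are labelled unstimulated. The titles of the controls also give 48 h, and no medium is named for them. All cells came from neonatal rat pups of postnatal day 1 to 2 and spent 2 days in proliferation medium with N2, B27, PDGF and NT3 before treatment. The strain and the fibrinogen dose are not given in the sources used here, nor is it said whether the arrays of a group came from separate cultures, so that p-values measure the spread between these arrays, which may be technical.

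In fatty acid synthesis, citrate exported from mitochondria is split into cytosolic acetyl-CoA, which acetyl-CoA carboxylase turns into malonyl-CoA and fatty acid synthase joins into saturated chains with NADPH as the reductant. Elongases lengthen these chains and desaturases put double bonds into them. Many genes of the pathway are transcriptional targets of the sterol regulatory element-binding proteins (SREBPs), which the Srebf genes encode. Oligodendrocytes need large amounts of lipid for the myelin sheath, and the series title asks whether fibrinogen acts on BMP signaling in these progenitors and on remyelination.

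Fibrinogen-treated OPCs had lower transcript levels of 7 of the 9 measured genes in limma (Benjamini-Hochberg adjusted p under 0.05 over all 13355 genes), and none was higher. Among all genes tested, 3.0% were called lower and 4.16% higher by the same rule. In either direction the share was 7.16%. The log2 fold change, fibrinogen over control, was negative for all 9 and ran from -1.26 for Acss2 to -0.24 for Acaca, with a median of -0.87. The median over all genes was 0.003. The 3 fibrinogen arrays lay below the 3 control arrays for all 9 genes, and the groups were separated, in either direction, for 27.0% of all genes. A fall of 1 or more on the log2 scale was reached by 4 of the 9, Acss2, Scd, Pnpla3 and Me1, and by 24 of all genes (0.18%). The genes were chosen with earlier results of these data known, so their excess over all genes is a description and not a test. The shares of all genes also count dim genes. Without genes below the median, 627 genes were called lower, against 401 of all 13355, and 8 of the 9 members.

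**Figure D1:**
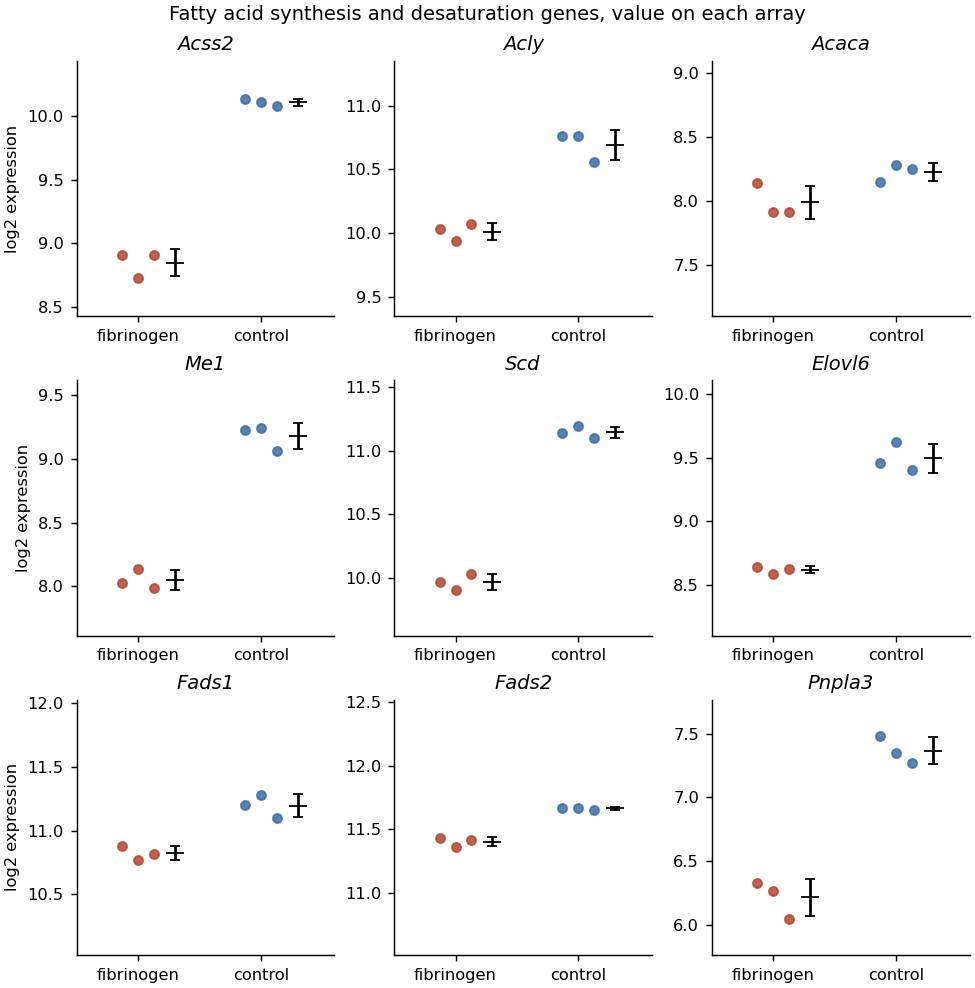
Log2 expression (vertical axis, each panel spanning the same range) of the 9 measured genes on each array, with fibrinogen arrays in red and control arrays in blue. Points are arrays and bars show the mean and SD of 3 arrays; the groups do not overlap in any panel, and the gap is 1.17 for Acss2 and 0.01 for Acaca.

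Acetyl-CoA is supplied to the cytosol by 2 of the measured enzymes. Acss2, the cytosolic acetyl-CoA synthetase that activates acetate, stood at a log2 expression of 8.91, 8.73 and 8.91 on the fibrinogen arrays, against 10.13, 10.11 and 10.08 on the control arrays. The lowest control array was 1.17 above the highest fibrinogen array. The fall was 2.39-fold (log2 fold change -1.26, SE 0.08, adjusted p = 0.00141 in limma), and Acss2 ranked 8 among all genes ordered from the largest fall. Acly, the ATP citrate lyase that splits exported citrate, was at 10.03, 9.94 and 10.07 with fibrinogen and at 10.76, 10.76 and 10.56 in control cells. This was a 1.6-fold fall (log2 fold change -0.68, SE 0.09, adjusted p = 0.00593 in limma), with a gap of 0.49 between the groups.

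Acaca, which encodes the acetyl-CoA carboxylase that commits acetyl-CoA to fatty acid synthesis, was not called. Its log2 expression was 8.14, 7.91 and 7.91 with fibrinogen and 8.15, 8.28 and 8.25 in control cells. Fibrinogen array 1 lay 0.01 below the lowest control array, so the separation of the groups was at the rounding of the deposited values. The log2 fold change was -0.24 (95% interval -0.46 to -0.02, adjusted p = 0.191 in limma). Me1, the cytosolic malic enzyme that yields NADPH, was at 8.03, 8.14 and 7.99 with fibrinogen, against 9.23, 9.24 and 9.06 in control cells. It fell 2.18-fold (log2 fold change -1.12, SE 0.09, adjusted p = 0.00165 in limma), and the groups were 0.92 apart.

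Scd, a stearoyl-CoA desaturase that makes monounsaturated fatty acids, was among the brightest of the falling genes, since 98.5% of all genes had a mean control level at or below its own. Its log2 expression was 9.97, 9.91 and 10.03 with fibrinogen and 11.14, 11.19 and 11.10 in control cells. The arrays within each group differed by at most 0.12, and the fall was 2.26-fold (log2 fold change -1.17, SE 0.07, adjusted p = 0.00141 in limma). Elovl6, the elongase that extends saturated and monounsaturated chains, was at 8.64, 8.59 and 8.63 with fibrinogen, against 9.46, 9.62 and 9.40 in control cells. It fell 1.83-fold (log2 fold change -0.87, SE 0.08, adjusted p = 0.00272 in limma), with a gap of 0.76.

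The fatty acid desaturases Fads1 and Fads2 act on polyunsaturated chains, and their changes were small. Fads1 was at 10.88, 10.77 and 10.82 with fibrinogen and at 11.20, 11.28 and 11.10 in control cells. It fell 1.29-fold (log2 fold change -0.37, SE 0.08, adjusted p = 0.0391 in limma), a call that was lost when any one of the 6 arrays was left out (adjusted p = 0.0661 without control 3 to 0.134 without fibrinogen 2). Fads2 was at 11.43, 11.36 and 11.42 with fibrinogen, against 11.67, 11.67 and 11.65 in control cells. It was not called (log2 fold change -0.26, 95% interval -0.42 to -0.10, adjusted p = 0.0709 in limma), although its groups were as far apart as those of Fads1, 0.22 in both. The call of Fads2 depended on the fit: it was made after subtracting each array's median (log2 fold change -0.34, adjusted p = 0.0337), with an unmoderated test (adjusted p = 0.0269), with a trended prior and with either filter on dim genes.

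Pnpla3, a patatin-family protein of lipid droplets, was the dimmest of the 9. It stood at 6.33, 6.27 and 6.05 with fibrinogen and at 7.48, 7.35 and 7.27 in control cells, where 66.4% of genes had a mean level at or below its own. It fell 2.22-fold (log2 fold change -1.15, SE 0.10, adjusted p = 0.00208 in limma), and the groups were 0.94 apart.

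In the order of change, Scd and Pnpla3 differed in log2 fold change by -0.02 (SE 0.13) and Pnpla3 and Me1 by -0.03 (SE 0.08), less than the error of these differences. Steps larger than their SE lay between Acss2 and Scd (-0.08, SE 0.04) and between Me1 and Elovl6 (-0.25, SE 0.07). The same held for Elovl6 and Acly (-0.19, SE 0.06), Acly and Fads1 (-0.31, SE 0.04) and Fads1 and Fads2 (-0.11, SE 0.05). The steps from Acss2 to Scd and from Fads1 to Fads2 were the smallest of these. No 95% interval was made for any step, so a step larger than its SE need not be a resolved difference. Fads2 and Acaca differed by -0.02 (SE 0.08), less than its error. These steps are a description, as each pair was picked by its place in the order.

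The order of the arrays within groups was similar for many of the 9 genes. Control 3 was the lowest control array for 8 of the 9 genes and fibrinogen 2 was the lowest fibrinogen array for 7, with ties counted. This order was not counted over all genes, so it may not be particular to the 9. The mean of the gene-centred log2 values of the 9 genes ran from -0.43 to -0.35 on the fibrinogen arrays and from 0.33 to 0.44 on the control arrays. With any 1 array left out, 6 of the 9 were called lower. Acss2, Scd, Pnpla3, Me1, Elovl6 and Acly kept their calls in all 14 alternative fits, and the highest adjusted p of these 6 with 1 array left out was 0.0347, for Acly.

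The bases before the RefSeq start (rat assembly GRCr8) are shown for 3 genes, the strongly lower Pnpla3 and Me1 and the weakly lower Fads1, as far as they precede the annotated gene. They show where boxes that often stand beside SREBP sites occur in the promoters of these members. Capitals mark matches to the NF-Y box (CCAAT, or ATTGG on the opposite strand) and the Sp1 box (GGGCGG, or CCGCCC on the opposite strand). Pnpla3 is read on the plus strand at chr7:117173278-117173484, Me1 on the minus strand at chr8:96540245-96540494 and Fads1 on the plus strand at chr1:216252442-216252604, each 5′ to 3′.
Pnpla3: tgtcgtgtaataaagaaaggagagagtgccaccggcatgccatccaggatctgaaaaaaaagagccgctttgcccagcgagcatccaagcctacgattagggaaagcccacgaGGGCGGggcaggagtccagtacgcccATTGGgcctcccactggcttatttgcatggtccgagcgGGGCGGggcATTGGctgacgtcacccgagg
Me1: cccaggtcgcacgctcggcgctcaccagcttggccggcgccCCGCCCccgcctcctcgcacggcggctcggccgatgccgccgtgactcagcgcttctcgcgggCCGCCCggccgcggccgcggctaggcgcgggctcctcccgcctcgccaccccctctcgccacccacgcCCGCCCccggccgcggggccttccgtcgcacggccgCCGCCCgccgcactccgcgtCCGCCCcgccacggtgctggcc
Fads1: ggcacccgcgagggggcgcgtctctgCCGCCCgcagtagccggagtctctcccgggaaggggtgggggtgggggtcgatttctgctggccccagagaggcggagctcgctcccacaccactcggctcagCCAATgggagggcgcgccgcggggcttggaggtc

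Promoter sequence was matched for 7 of the 9 measured genes, and a window of 250 bases before the start was searched on both strands. The NF-Y box occurred in 4 of the 7 windows (Acss2, Acly, Fads1 and Pnpla3) and in 34.0% of the 33469 windows of the table. The Sp1 box occurred in 6 of the 7, all but Scd, and in 30.5% of all windows. Pnpla3 held 2 NF-Y boxes, of which the one nearer the start lay 3 bases from an Sp1 box, and Me1 held 5 Sp1 boxes and no NF-Y box. The sterol regulatory element searched (TCACNCCAC, present in 0.974% of all windows), the E-box (CACGTG, 5.59%) and a direct-repeat LXR element (0.00299%) had no match in the 7 windows. The table covers genes of every kind, and the windows of Acss2, Acly and Scd lie inside the annotated gene, downstream of another start. Of the Fads2 window 93 bases lie before the gene, and its only box, an Sp1 box at -99 to -94 from the start, lies inside the gene. A match is a description of these letters and not a site of binding, and no relation between boxes and the size of a change was tested.

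**Figure D2:**
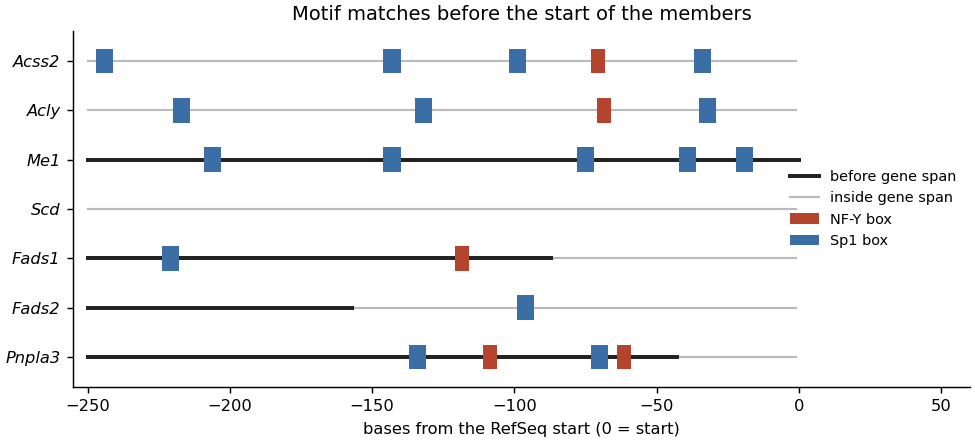
Matches to the NF-Y box (red) and the Sp1 box (blue) in the 250 bases before the RefSeq start of 7 members; the horizontal axis is the distance from the start in bases. Dark lines mark bases before the annotated gene and grey lines bases inside it; Me1 carries 5 Sp1 boxes and Scd no match.

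The members were next set beside measured relatives of the same enzyme families, which catalyse the same kind of reaction. Members were chosen with earlier results of these data known and the pairs were made after the values were seen, so their counts and intervals are a description. For 10 of 12 such pairs the member had the more negative log2 fold change. In 4 of these 10 the relative was dim in control cells, with a mean level of 3.48 for Acss3, 3.57 for Elovl3, 4.04 for Acacb and 4.74 for Pnpla5, so that a fall may not have been measurable. Scd2, the other stearoyl-CoA desaturase measured, was at 11.99, 12 and 12.05 with fibrinogen, against 12.05, 12.11 and 12.06 in control cells, and was not called (log2 fold change -0.06, 95% interval -0.22 to 0.10). The change of Scd was more negative than that of Scd2 by 1.11 on the log2 scale (difference -1.11, 95% interval -1.19 to -1.04, from the differences within each array). Both probe sets read closely related transcripts, so that cross-hybridization between them is possible and was not tested.

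Elovl5, which elongates polyunsaturated chains, was at a log2 fold change of -0.05 (95% interval -0.22 to 0.12), and Elovl6 differed from it by -0.82 (95% interval -0.95 to -0.69). Me2, a mitochondrial malic enzyme, was at -0.04 (95% interval -0.22 to 0.14), and Me1 differed from it by -1.08 (95% interval -1.32 to -0.85). Acss3, another acyl-CoA synthetase of short chains, was at 0.03 (95% interval -0.27 to 0.33) at its dim level. Acacb, the carboxylase that serves the control of fatty acid oxidation, was likewise dim and at -0.03 (95% interval -0.25 to 0.20), and the interval of its difference from Acaca reached from -0.48 to 0.05.

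Fads3 had a more negative log2 fold change than Fads1 and Fads2. It encodes a desaturase of sphingoid bases and lies next to Fads2 on chromosome 1, where Fads3, Fads2 and Fads1 are consecutive protein-coding genes in GRCr8. Its log2 expression was 7.07, 6.78 and 6.83 with fibrinogen and 7.85, 7.69 and 7.69 in control cells, without overlap. It fell 1.80-fold (log2 fold change -0.85, SE 0.10, adjusted p = 0.00496 in limma). The differences of Fads1 and Fads2 from Fads3 in log2 fold change were 0.48 (95% interval 0.22 to 0.74) and 0.59 (95% interval 0.34 to 0.84). Among the remaining relatives, Pnpla2, the adipose triglyceride lipase, was lower on every fibrinogen array, at 8.12, 7.69 and 7.97, against 8.37, 8.35 and 8.28 in control cells, without overlap. Its log2 fold change was -0.41 (95% interval -0.68 to -0.13), which was not called (adjusted p = 0.0914 in limma). Me3, the mitochondrial NADP-dependent malic enzyme, was at -0.22 (95% interval -0.70 to 0.25) and Elovl2, an elongase of polyunsaturated fatty acids, at 0.33 (95% interval -0.08 to 0.73), and neither was called. Each of the 12 differences between a member and its relative had a two-sided exact permutation p of 0.1 (also 0.1 after Benjamini-Hochberg adjustment over the 12), the smallest that 3 arrays against 3 can give. As all 12 had the same p, this test does not tell the pairs apart.

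**Figure D3:**
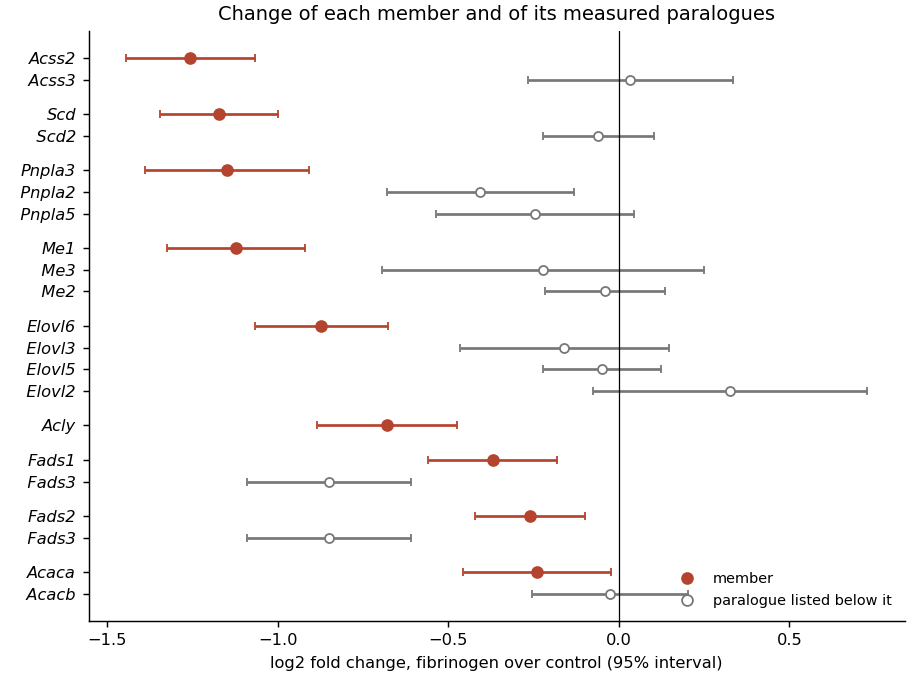
Log2 fold change, fibrinogen over control, with its 95% interval for the 9 members (filled red) and, under each, its measured relatives of the same enzyme family (open grey). The intervals of Scd, Me1 and Elovl6 lie wholly below 0, those of Scd2, Me2 and Elovl5 include 0, that of Pnpla2 lies below 0, and Fads3 lies left of Fads1 and Fads2.

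The wider pathway was described with 8 lists of genes by role, 105 measured genes outside the 9 members. Of these, 17 fell, 2 rose and 86 were not called, with a median log2 fold change of -0.05. Among all genes 3.0% were called lower, and of the 105 it was 16.2%. The lists too were chosen with earlier results of these data known, so this excess is a description. The share of all genes again counts dim genes. Without genes below the median, 627 genes were called lower, 24 of them in the wider lists. The count of falls was between 9 and 12 with 1 array left out and the count of rises between 0 and 2.

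Of 15 genes of SREBP control, 2 fell and 13 were not called. Insig1, a sterol-regulated anchor of the SREBP escort protein and itself an SREBP target, was at 10.60, 10.57 and 10.62 with fibrinogen, against 11.12, 11.39 and 11.27 in control cells. It fell 1.58-fold (log2 fold change -0.66, SE 0.09, adjusted p = 0.00705 in limma). Insig1 had 2 probe sets, and the log2 fold change of their average was -0.80 (adjusted p = 0.00358 in limma). Mid1ip1, which promotes the polymerization of acetyl-CoA carboxylase, fell 1.54-fold, with values of 9.03, 8.88 and 8.96 on the fibrinogen arrays, against 9.55, 9.60 and 9.59 on the control arrays.

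Other measured genes of SREBP control were not called. Srebf2, the gene of the SREBP that mainly serves sterol synthesis, was at 9.61, 9.55 and 9.47 with fibrinogen and at 9.53, 9.69 and 9.63 in control cells, with overlap (log2 fold change -0.07, 95% interval -0.26 to 0.12). Scap, the escort protein, and Insig2, the second anchor, were at 0.27 (95% interval 0.06 to 0.48, adjusted p = 0.133) and -0.31 (95% interval -0.56 to -0.06, adjusted p = 0.142) in limma. The liver X receptor genes Nr1h2 and Nr1h3, which induce Srebf1 in many tissues, were at 0.15 (95% interval -0.05 to 0.35) and 0.08 (95% interval -0.13 to 0.29). Thrsp, a lipogenic nuclear protein related to Mid1ip1, was dim and spread widely on the fibrinogen arrays (4.33, 5.2 and 4.84, against 5.09, 5.0 and 5.08 in control cells), and its log2 fold change was -0.27 (95% interval -0.74 to 0.20). Srebf1 and Mlxipl, which encode the main transcription factors of lipogenesis, were not analysed here.

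Among 13 genes that supply citrate, acetyl-CoA and NADPH, 4 fell and 9 were not called. Slc25a1, the mitochondrial citrate exporter upstream of Acly, was at 8.38, 8.33 and 8.37 with fibrinogen, against 9.02, 8.87 and 8.95 in control cells, and fell 1.5-fold (log2 fold change -0.59, SE 0.07, adjusted p = 0.00568 in limma). Slc25a1 had 2 probe sets, and their average fell less (log2 fold change -0.43, adjusted p = 0.0213 in limma). The other falls were Aacs, which activates acetoacetate for lipid synthesis (log2 fold change -0.63), and the pentose phosphate enzymes Tkt and Taldo1 (-0.32 each). The calls of Aacs, Tkt and Taldo1 did not survive the removal of any single array (adjusted p up to 0.112, 0.143 and 0.159 in limma). None of 6 other elongation genes was called, at log2 fold changes from -0.20 to 0.33. Of 10 further desaturation and electron supply genes, Fads3 and Cyb5r2, a cytochrome b5 reductase, fell. Cyb5r2 was dim (3.93 ± 0.23 with fibrinogen and 4.52 ± 0.06 in control cells, SD, n = 3), and its call did not survive the removal of any single array (adjusted p up to 0.102 in limma). None of 9 carboxylase partners and mitochondrial fatty acid synthesis genes was called.

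Fatty acids are activated to acyl-CoA before they enter lipids, and 4 of the 5 measured Acsl genes, which encode long-chain acyl-CoA synthetases, fell. The fifth, Acsl6, was not called (log2 fold change 0.14, 95% interval -0.14 to 0.42). Of 18 measured activation and thioester genes, 4 fell, 1 rose and 13 were not called. Acsl3, a synthetase of the endoplasmic reticulum and lipid droplets, was at 10.25, 10.34 and 10.12 with fibrinogen, against 11.17, 11.28 and 11.21 in control cells. It fell 1.98-fold (log2 fold change -0.98, SE 0.08, adjusted p = 0.00187 in limma) and ranked 26 by size of fall. Acsl4, which prefers arachidonate, fell 1.59-fold, Acsl1 1.47-fold and Acsl5 1.28-fold. Acsl5 lost its call on removal of any single array (adjusted p up to 0.108 in limma), and so did Acsl1 (up to 0.0747), except on removal of fibrinogen 3. Slc27a3, of the fatty acid transport protein family, rose 1.27-fold, which no longer passed on removal of any single array (adjusted p up to 0.152 in limma) or after subtraction of each array's median.

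Glycerolipid assembly genes moved in both directions, with 4 falls, 1 rise and 21 of 26 not called. Gpam, the mitochondrial acyltransferase of the first step, was at 8.96, 8.86 and 8.98 with fibrinogen, above 8.47, 8.49 and 8.45 in control cells, and rose 1.38-fold (log2 fold change 0.46, SE 0.07, adjusted p = 0.0122 in limma). Gpat4, which catalyses the same step at the endoplasmic reticulum, fell 1.52-fold, with values of 8.80, 8.72 and 8.85 on the fibrinogen arrays, against 9.44, 9.41 and 9.34 on the control arrays. These isoenzymes of the same step thus changed in opposite directions. Further along the route, Agpat4, a lysophosphatidate acyltransferase, fell 1.59-fold, Lpin1, a phosphatidate phosphatase, 1.38-fold and Dgat2, which completes triglycerides, 1.6-fold. Calls were lost for Gpam without fibrinogen 1, fibrinogen 3 or control 3 (highest adjusted p = 0.0590), for Agpat4 without fibrinogen 1 (0.0525), for Lpin1 without fibrinogen 2 or 3 (0.0569) and for Dgat2 without fibrinogen 1 or 2 (0.0710), all in limma. Of 8 lipase and patatin-family genes outside the members, Lipe, the hormone-sensitive lipase, fell 1.52-fold and 7 were not called.

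**Figure D4:**
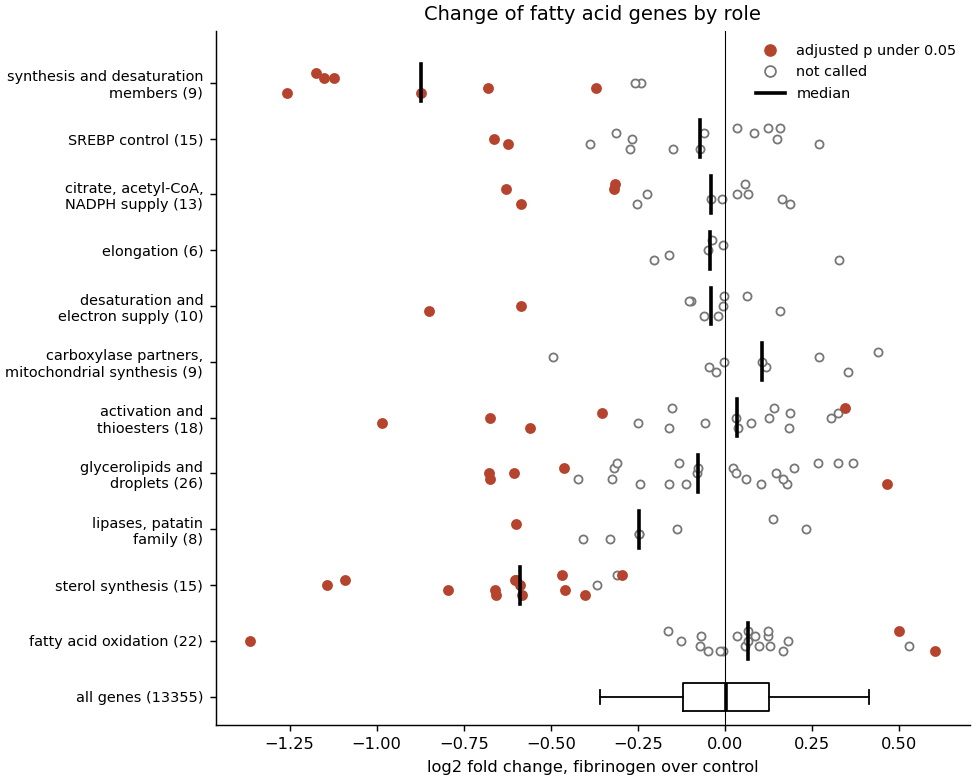
Log2 fold change, fibrinogen over control, of the 9 members, of 8 further lists of fatty acid genes, of sterol synthesis and fatty acid oxidation genes and of all genes (box, quartiles with whiskers at the 5th and 95th percentiles). Red points have an adjusted p under 0.05 and black bars are medians, at -0.87 for the members, -0.59 for sterol synthesis and 0.07 for fatty acid oxidation.

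Sterol synthesis, the other SREBP-controlled route, and fatty acid oxidation, the opposite route, are given beside the members. Of 15 measured sterol synthesis genes 13 fell (86.7%) and 2 were not called, with a median log2 fold change of -0.59. Of all genes 3.0% were called lower and 4.16% higher. With 1 array left out, 9 or 10 were called: Pmvk, Fdft1 and Sqle lost their calls on removal of any single array, and Dhcr7 on removal of any but control 3 (adjusted p up to 0.151 for Fdft1 in limma). The 3 most negative were Mvd (-1.14), Tm7sf2 (-1.09) and Lss (-0.80). Of 22 fatty acid oxidation genes 1 fell (4.55%), 2 rose and 19 were not called, with a median of 0.07. The share that fell was thus near that of all genes, and so few calls show no direction for this list. Ehhadh, a peroxisomal oxidation enzyme, fell 2.57-fold. Cpt1a, the carnitine palmitoyltransferase at the entry of fatty acids into mitochondria, and Eci1, an enoyl-CoA isomerase of mitochondria, rose 1.52-fold and 1.41-fold. The call of Cpt1a was lost without fibrinogen 2 or 3 (highest adjusted p = 0.0619) and that of Eci1 on removal of any single array but fibrinogen 2 (adjusted p up to 0.107), both in limma. The members, the sterol genes and the oxidation genes were measured on the same arrays and chosen with earlier results of these data known. The difference between the lists was not tested.

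Beyond these lists, the 5 genes whose gene-centred values lay closest to the mean profile of the 9 members over the 6 arrays were Plxnb3, Dgka, Nfe2l1, Peak1 and Tgfbr3. Their mean absolute difference from that profile was between 0.02 and 0.04 on the log2 scale. Plxnb3, a plexin receptor of semaphorins, was at 8.91, 8.84 and 8.88 with fibrinogen, against 9.64, 9.68 and 9.56 in control cells. With 6 arrays in 2 groups this likeness mainly records a similar size of fall.

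Cell type markers were read on the same arrays, on which 3.0% of all genes were called lower and 4.16% higher. In bulk RNA, fewer cells of a type and less RNA per cell cannot be told apart. Of 6 measured progenitor markers, Pdgfra, Cspg4 and Olig1 rose and 3 were not called. These 3 were Ptprz1, at a log2 fold change of 0.27, Sox10, at -0.09, and Gpr17, at -0.14 and without overlap. All 6 had mean control levels above the median gene. The rises numbered 1, Cspg4, without fibrinogen 1, where Pdgfra had an adjusted p of 0.0504 in limma, and Olig1 also lost its call without fibrinogen 3 (adjusted p up to 0.0560). The list's mean log2 level was 10.47 to 10.54 with fibrinogen and 10.16 to 10.25 in control cells. Of 5 measured mature oligodendrocyte markers, Mbp, Mag and Cnp fell and 2 were not called. All 5 also had mean control levels above the median gene, and 99.6% of genes were at or below Mbp in control cells. Only the call of Mag held on removal of each array in turn, as Mbp and Cnp lost theirs in all 6 such fits (adjusted p up to 0.156 and 0.143 in limma). Mbp had 2 probe sets and also lost its call when they were averaged. The mean log2 level of the list was 9.08 to 9.16 on the fibrinogen arrays and 9.44 to 9.54 on the control arrays. Of 6 astrocyte markers, Gfap, Slc1a2 and Slc1a3 rose and 3 were not called, with Aqp4 at a log2 fold change of -0.24, Gja1 at -0.10 and S100b at -0.09. Of the 6, only Gja1 had a mean control level below the median gene. The mean of the astrocyte list was 8.11 to 8.17 with fibrinogen and 7.79 to 7.85 in control cells. The mean of the mature oligodendrocyte list was thus lower on every fibrinogen array, without overlap. That of the astrocyte list was higher without overlap, although only 3 of its 6 changes were positive. The groups also did not overlap in the mean of the progenitor list, which was higher, and of the microglial list given below, which was lower. Among single genes the groups were separated, in either direction, for 27.0%, and this share was not counted for list means. The part of any of these lists in the falls of the members was not tested. Of 7 neuron markers, Elavl4 rose, Syt1 fell and 5 were not called, and the groups overlapped in the list's mean (7.37 to 7.53 with fibrinogen, 7.47 to 7.62 in control cells).

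Microglial markers were dim: all 7 had mean control levels below the median gene, 1 of them, Itgam, fell, a call that held without control 1 but on removal of no other array (adjusted p up to 0.122 in limma). The list's mean was 4.12 to 4.20 with fibrinogen and 4.37 to 4.48 in control cells. All 5 adipocyte markers, among them Adipoq and Plin1, lay in the dimmest 34.5% of genes in control cells and were not called, and their mean was 3.99 to 4.10 with fibrinogen and 4.02 to 4.36 in control cells. The 4 endothelial and 5 pericyte and fibroblast markers were below the median gene and not called. The values come without detection calls, and it is unknown whether these dim genes were above background.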

How the data were processed

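Affymetrix rat gene arrays were hybridised with biotin-labelled RNA amplified with a NuGEN whole-transcriptome kit, per the labels' protocols. The authors' deposited values are log2 expression per probe set, rounded to 2 decimals and normalized between arrays. Per the submitters' processing notes, RMA and limma were used, with no settings given; RMA compresses changes of dim probes. Of 26312 probe rows, 23631 had a value on all 6 arrays and 2681 were empty.

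The platform's annotation named 14083 valued probes with 1 gene symbol. The 228 with several symbols and the 9320 with none were left out. The probe with the highest mean represented each of 13355 genes. The groups were compared by lmFit and eBayes of limma 3.58.1 under R 4.3.3 (two-sided test, neither covariate nor brightness filter), and p-values were adjusted by Benjamini-Hochberg across all genes, with calls at 0.05. All fold changes put fibrinogen over control. The SE of a gene's log2 fold change is moderated, the SD is over 3 arrays and intervals are 95%. For differences between paired genes, the SEs and intervals are unmoderated and come from the differences within each array. They are therefore not comparable with the moderated ones. Precision is limited by the number of arrays. The median SE was 0.104, and in arrays simulated for the 13355 genes the fit called 54.5% of 66 genes changed by 0.5 on the log2 scale and all 67 changed by 1. The simulation changed 200 genes and drew independent normal errors, whereas 956 genes were called in the data, so recovery in the data may differ. Arrays were grouped by title. The 14 alternatives comprised leaving out each array, a replicate block, median centring, probe averaging, 2 brightness filters, a trended prior, an unmoderated test and array weights.

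The members and gene lists were chosen with earlier results of these data known. All 10 members were named whatever their values. Genes of the wider lists were named where called, with 16 regulators and relatives named whatever their values, and the comparison lists by their 3 largest called changes. Relatives of the same enzyme family and neighbours in the order of change were paired, and the relatives named, after the values were seen. Of 132 genes of the wider lists, 105 were measured. Promoter sequences are those of RefSeq (GRCr8). The arrays' own build is not given in the sources used here.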

Additional observations from a re-analysis of the deposited data

How the results depend on the processing

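The 9 members kept their direction under all 14 alternatives, and their count of falls, 7, lay between 6 and 8. Fads1 lost its call with an unmoderated test (log2 fold change -0.37, adjusted p = 0.0700) and, between -0.42 and -0.33, with any one array left out. Fads2 gained a call with each array centred on its median (-0.34), and at -0.26 without the dimmest 25% of genes, without genes below the median, with a trended prior and unmoderated. Of all genes, 956 were called (555 higher and 401 lower), against 358 to 592 with 1 array left out, 1456 without genes below the median, 1639 with a trended prior and 500 unmoderated. Median centring moved the split to 394 higher and 618 lower, and the median change of all genes to -0.07. In the wider pathway the 17 falls became 9 to 12 and the 2 rises 0 to 2 with 1 array left out. Rises numbered 1 with centring or unmoderated, and 4 under either brightness filter, a trended prior or array weights. No pairing by replicate number was seen: deviations of same-numbered arrays correlated at 0.02, -0.14 and -0.07, and 0 of 6 arrays correlated best with its own number. This check rests on 3 arrays per group and cannot settle whether same-numbered arrays shared a culture. With the replicate number as a block, 343 genes were called and 6 members fell (Fads1 was lost at -0.37). The wider pathway then had 8 falls and 0 rises. For all other alternatives the cause of a changed call was not tested, save that fewer arrays or genes enter some of them. Brightness without detection calls limits what can be said of dim genes.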
